A study of Mus musculus with 2 samples.

Results

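The genes that make, store and break down serotonin and dopamine were examined in cells that carry the NGN3-EGFP reporter of endocrine progenitors. They were chosen by name as 10 gene symbols of the deposited count tables: Tph1, Tph2, Ddc, Slc18a1, Slc18a2, Fev, Lmx1b, Gch1, Maob and Th, of 23284 symbols in all. The study holds 2 RNA-seq libraries, replicates 1 and 2 of 1 group. Per the labels, pancreata of NGN3-EGFP embryos at e15.5, of a mixed strain given as C57BL6, were dissected whole, and the GFP+ cells were sorted before RNA extraction. The labels do not say how many embryos were pooled, whether the reporter replaces a Neurog3 allele, or whether the libraries come from different litters; their spread may therefore be technical only. With 1 group there was no comparison between conditions.

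Serotonin is made from tryptophan and dopamine from tyrosine, each by an aromatic amino acid hydroxylase followed by the decarboxylase Ddc, and the hydroxylases need the cofactor tetrahydrobiopterin. The products are pumped into vesicles by a vesicular monoamine transporter and broken down by monoamine oxidase. In serotonergic neurons the ETS factor Fev (also called Pet1) and the LIM homeodomain factor Lmx1b switch on this set of genes. In the pancreas, Fev is known from endocrine precursors, Th from early islet cells and Tph1 from beta cells in pregnancy.

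In the sorted cells the set was split. Transcripts of the factor gene Fev, the cofactor enzyme gene Gch1 and the oxidase gene Maob were abundant, at 237 ± 111, 271 ± 52.1 and 175 ± 13.5 CPM (SD, n = 2; CPM is a gene's share of the counted reads, scaled to 1000000 reads). Ddc, Th, both vesicular transporter genes and Lmx1b were present at lower levels. The tryptophan hydroxylase genes, which carry out the first step of serotonin synthesis, were almost without reads: Tph2 had none, and Tph1 had 18 reads in 1 library. Of the 10 genes, 8 reached 1 CPM in both libraries, where 45.7% of all symbols did.

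The regions before the start sites of genes at both ends of this range are shown for context, since Fev is an ETS factor and ETS factors bind DNA with a GGAA core. The windows are the 250 bases before a start in RefSeq on GRCm38.p6, which is not the mm9 build of the counts, all on the minus strand and written 5′ to 3′. Capitals mark GGAA or its reverse complement TTCC. For Fev (chr1:74885409-74885658) a longer RefSeq record of the gene begins at 74885473, inside the window. For Gch1 the window is chr14:47189414-47189663 and for Tph2 chr10:115185023-115185272. Tph1 has an outer start with the window chr7:46672538-46672787 and an inner start, inside the gene, with chr7:46667378-46667627.
Fev: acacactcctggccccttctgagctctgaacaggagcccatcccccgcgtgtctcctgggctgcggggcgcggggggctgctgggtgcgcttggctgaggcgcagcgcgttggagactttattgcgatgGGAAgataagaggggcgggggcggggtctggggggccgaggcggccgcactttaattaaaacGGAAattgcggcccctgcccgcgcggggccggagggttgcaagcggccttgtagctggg
Gch1: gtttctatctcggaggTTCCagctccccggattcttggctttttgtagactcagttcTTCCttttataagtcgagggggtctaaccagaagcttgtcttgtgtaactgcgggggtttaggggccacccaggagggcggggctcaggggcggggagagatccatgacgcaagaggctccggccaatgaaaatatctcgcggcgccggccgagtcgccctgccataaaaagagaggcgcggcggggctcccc
Tph2: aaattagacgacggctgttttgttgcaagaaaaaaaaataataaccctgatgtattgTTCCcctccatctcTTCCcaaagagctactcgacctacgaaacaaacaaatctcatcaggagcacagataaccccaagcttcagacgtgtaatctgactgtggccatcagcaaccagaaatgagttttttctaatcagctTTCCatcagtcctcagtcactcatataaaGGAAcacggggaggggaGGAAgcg
Tph1 outer start: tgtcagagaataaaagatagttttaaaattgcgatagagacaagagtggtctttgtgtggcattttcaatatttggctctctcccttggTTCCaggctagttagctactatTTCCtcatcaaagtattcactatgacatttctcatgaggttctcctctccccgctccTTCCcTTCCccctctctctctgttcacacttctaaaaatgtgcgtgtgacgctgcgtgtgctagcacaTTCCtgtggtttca
Tph1 inner start: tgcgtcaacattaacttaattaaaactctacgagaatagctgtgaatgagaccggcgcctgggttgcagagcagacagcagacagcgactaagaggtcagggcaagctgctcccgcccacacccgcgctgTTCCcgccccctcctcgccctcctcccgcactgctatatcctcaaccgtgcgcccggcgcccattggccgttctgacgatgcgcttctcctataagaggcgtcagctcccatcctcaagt
Counted on both strands, GGAA occurred 2 times before Fev, 2 times before Gch1, 5 times before Tph2, 5 times before the outer and 1 time before the inner start of Tph1. These letters are in 93.4% of the 32851 RefSeq windows of the same length, so their presence does not set the genes apart. The longer ETS motif CCGGAA was in none of the 10 windows matched for 8 of the 10 genes, and in 12% of all windows. The windows of Fev and Gch1 held 22 and 17 CpG pairs, that of Tph2 held 7, and those of Tph1 held 5 at the outer and 19 at the inner start, where the median of all windows was 6. A match is a description of letters and not of binding, and no match says only that the letters are not in the window.

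Tph1 encodes the tryptophan hydroxylase of peripheral tissues. No read was counted in replicate 1, and 18 reads in replicate 2 gave 1.49 CPM (exact Clopper-Pearson 95% interval 0.88 to 2.35). Only in replicate 2 was the measured level thus above 1 CPM, and its interval reaches below that limit. Tph2 encodes the hydroxylase of serotonergic neurons and had 0 reads in both libraries. The limit of 3 counts per library stands for 0.241 CPM (replicate 1) or 0.248 CPM (replicate 2). The exact 95% interval is wider and reaches 0.297 and 0.305 CPM. These limits and all intervals reflect counting error alone. In replicate 2, Tph1 was at least 3.31-fold higher than Tph2 per kb of exon, with Tph2 set at 3 counts. This bound takes the 18 reads of Tph1 as exact and leaves out their counting error. In replicate 1 both genes were without a read. The level of these genes could not be read as absence of the transcripts in every cell: in pooled cells, fewer cells of a type and less RNA per cell cannot be told apart.

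Th encodes tyrosine hydroxylase, the first enzyme of dopamine synthesis. Its level was 31.6 CPM (393 reads) in replicate 1 and 19.0 CPM (230 reads) in replicate 2. Th was thus well above the tryptophan hydroxylase genes in each library. Per kb of exon it was at least 264-fold above Tph1 in replicate 1, with Tph1 set at 3 counts and the 393 reads of Th taken as exact. In replicate 2 the level of Tph1 was 0.0389 of that of Th (0.0227 to 0.0629 from the exact binomial interval of their reads). Of the reads of Tph1 and Th together in replicate 2, 7.26% came from Tph1.

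Ddc encodes the aromatic amino acid decarboxylase, which both pathways share. Its levels in replicates 1 and 2 were 54.6 and 51.6 CPM, with 679 and 624 reads. Their intervals, 50.6 to 58.8 and 47.6 to 55.8 CPM, overlapped. Ddc was the only one of the 9 genes tested between the libraries that did not pass the exact binomial test (Benjamini-Hochberg adjusted p = 0.344).

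Gch1 encodes GTP cyclohydrolase, the first enzyme of tetrahydrobiopterin synthesis. It was at 235 and 308 CPM in replicates 1 and 2, with 2919 and 3730 reads, and lay at percentiles 95.5 and 97.3 of all genes with reads, by level per kb. Gch1 was high in both libraries. Maob encodes monoamine oxidase B, which breaks down dopamine and trace amines. It was at 184 and 165 CPM, with 2290 and 1996 reads, at percentiles 94.8 and 94.4 per kb. The libraries were close for Maob, 1.12-fold apart.

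Fev was the most abundant of the 10 genes per kb of exon. Its levels in replicates 1 and 2 were 158 and 315 CPM, from 1969 and 3811 reads, at percentiles 96.7 and 99.0 per kb. Replicate 2 was thus 1.99-fold above replicate 1, while Neurog3, the factor gene that starts the endocrine programme, was at 736 and 551 CPM and so higher in replicate 1. Per kb, the level of Fev was 0.218 of that of Neurog3 in replicate 1 and 0.578 in replicate 2. Lmx1b, the partner of Fev in serotonergic neurons, was at 12.1 and 8.43 CPM, from 151 and 102 reads. Per kb, Fev was 41.0-fold above Lmx1b in replicate 1 (34.8 to 48.8) and 118-fold in replicate 2 (96.6 to 145), where the intervals come from exact binomial limits on the reads of the pair.

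Slc18a1 and Slc18a2 encode the vesicular monoamine transporters, Slc18a1 known from endocrine cells and Slc18a2 from neurons. Slc18a1 was at 28.1 CPM in replicate 1 (25.2 to 31.2) and 4.13 CPM in replicate 2 (3.07 to 5.45), from 349 and 50 reads. Slc18a2 was at 22.4 CPM (19.9 to 25.2) and 5.79 CPM (4.51 to 7.31), from 279 and 70 reads. Both transporter genes were higher in replicate 1, by 6.79-fold and 3.88-fold. Per kb, Slc18a2 was at 0.658 of the level of Slc18a1 in replicate 1 (0.56 to 0.772) and at 1.15 of it in replicate 2 (0.79 to 1.69). The interval in replicate 2 spans equal levels, so the order of the pair there is not settled.

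**Figure D1:**
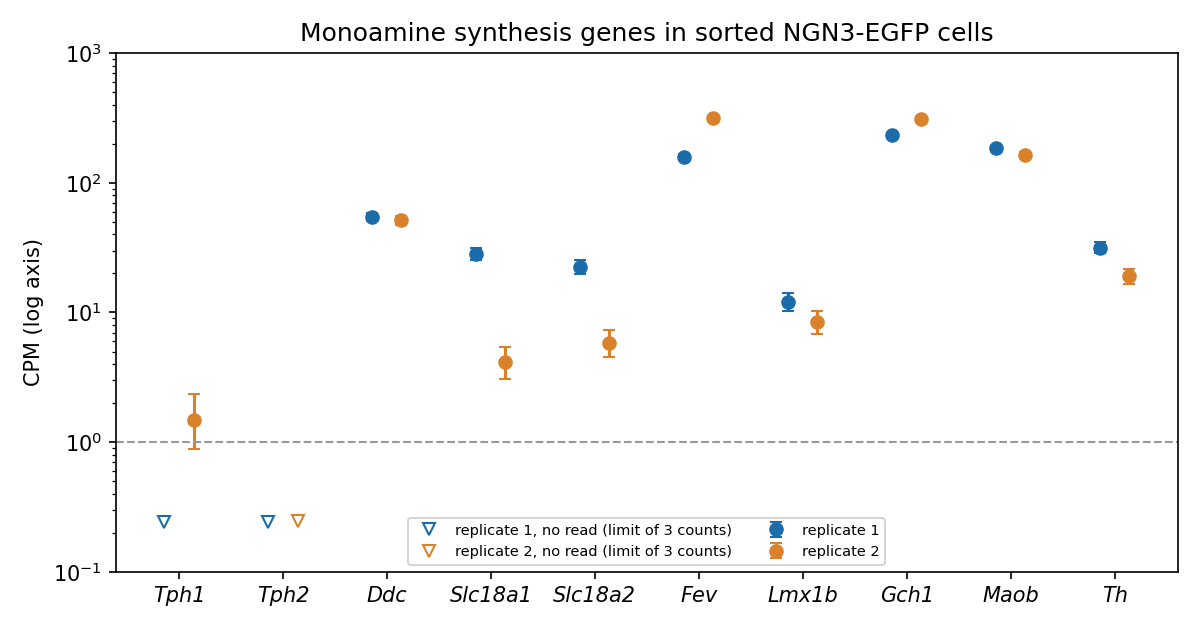
Level of each of the 10 genes in CPM, on a log axis, in replicate 1 and replicate 2; bars are exact Clopper-Pearson 95% intervals, open triangles mark genes with no read at the limit of 3 counts, and the dashed line is 1 CPM. Fev, Gch1 and Maob lie above 100 CPM in both libraries, and Tph1 and Tph2 lie at the bottom.

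Ordered by mean level per kb of exon, the genes ran Fev, Gch1, Maob, Ddc, Th, Slc18a1, Slc18a2, Lmx1b, Tph1 and Tph2. In CPM per kb, Fev was at 104 and 207, Gch1 at 84.6 and 111 and Maob at 76.4 and 68.4 in replicates 1 and 2. Ddc followed at 26.1 and 24.6, Th at 13.4 and 8.04, and Lmx1b at 2.53 and 1.76. Of the 9 neighbouring pairs, 4 did not overlap between libraries: Gch1 over Maob, Maob over Ddc, Ddc over Th, and Lmx1b over Tph1. Some of these separations depended on the exon length used. With all GENCODE M21 transcripts in place of the basic ones, Gch1 (6251 bases, against 2775) fell below Maob (2789, against 2411). Ddc (4461, against 2093) then overlapped Th, whose length stayed at 2364 bases. The remaining pairs overlapped between libraries. Among them, Fev was above Gch1 and Th above Slc18a1 within each library. Slc18a1 and Slc18a2 were at 9.01 and 1.33 and at 5.93 and 1.53 CPM per kb. By value they changed places between the libraries, but the counting interval of their ratio in replicate 2 spans equal levels. The order was not tested, since 0.5 is the smallest p that exact permutation allows with a pair of libraries.

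**Figure D2:**
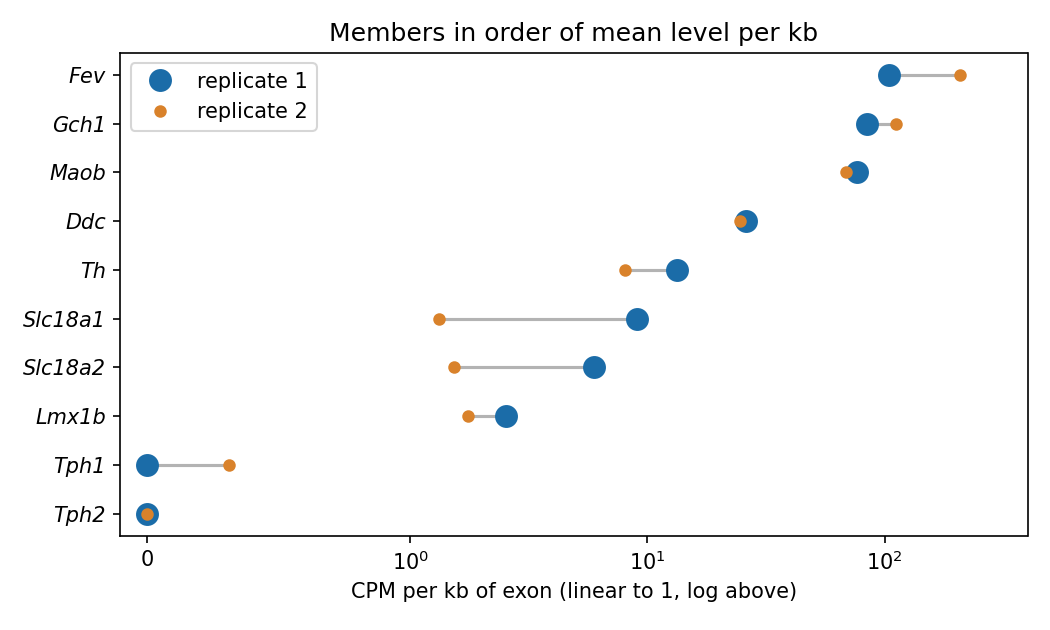
Level of each gene in CPM per kb of exon, linear up to 1 and logarithmic above, in order of the mean; large points are replicate 1, small points replicate 2, joined by a line. The lines of Slc18a1 and Slc18a2 are the longest among the genes with reads in both libraries, and that of Ddc is the shortest.

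Differences between the libraries were tested gene by gene on the reads (exact binomial, two-sided), adjusted by Benjamini-Hochberg over all 13416 genes with at least 10 reads in the sum of both. The test compares these libraries and not conditions. Of the 10 genes 9 were tested and 8 differed, where 85.8% of all genes tested did, so the count is near the background. Of these, 5 were higher in replicate 1, where 41.7% of all genes tested were, and 3 in replicate 2, where 44.1% were. Slc18a1, Slc18a2 and Th were among those higher in replicate 1, with log2 ratios of replicate 2 over replicate 1 of -2.72, -1.92 and -0.73 and Benjamini-Hochberg adjusted exact p of 8.01e-54, 6.05e-29 and 1.02e-09. Lmx1b and Maob were also higher there, with log2 ratios of -0.52 and -0.16 and adjusted exact p of 0.00572 and 0.000468. Fev, Gch1 and Tph1 were higher in replicate 2. The log2 ratio was 0.99 for Fev and 0.39 for Gch1, with Benjamini-Hochberg adjusted exact p of 9.31e-142 and 4.59e-28. Tph1 entered the test only through its 18 reads in replicate 2.

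A difference of over 2-fold besides the test was found for 3 of the 10 genes, Tph1, Slc18a1 and Slc18a2, where 47.8% of all genes tested met both. Fev lay at the 2-fold line, just inside it at a log2 ratio of 0.99 and just over it, at 1.005, when plain column totals replaced the scaling. The spread of these libraries depended on level: 12.2% of the 2269 genes with a mean of 100 to 1000 CPM were over 2-fold apart. The share was 42.9% of the 6762 genes from 10 to 100 CPM and 74% of the 3487 genes from 1 to 10 CPM. Fev, Gch1 and Maob lie in the class from 100 to 1000 CPM. Ddc, Slc18a1, Slc18a2, Lmx1b and Th lie in that from 10 to 100 CPM, and no gene of the set in that from 1 to 10 CPM.

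**Figure D3:**
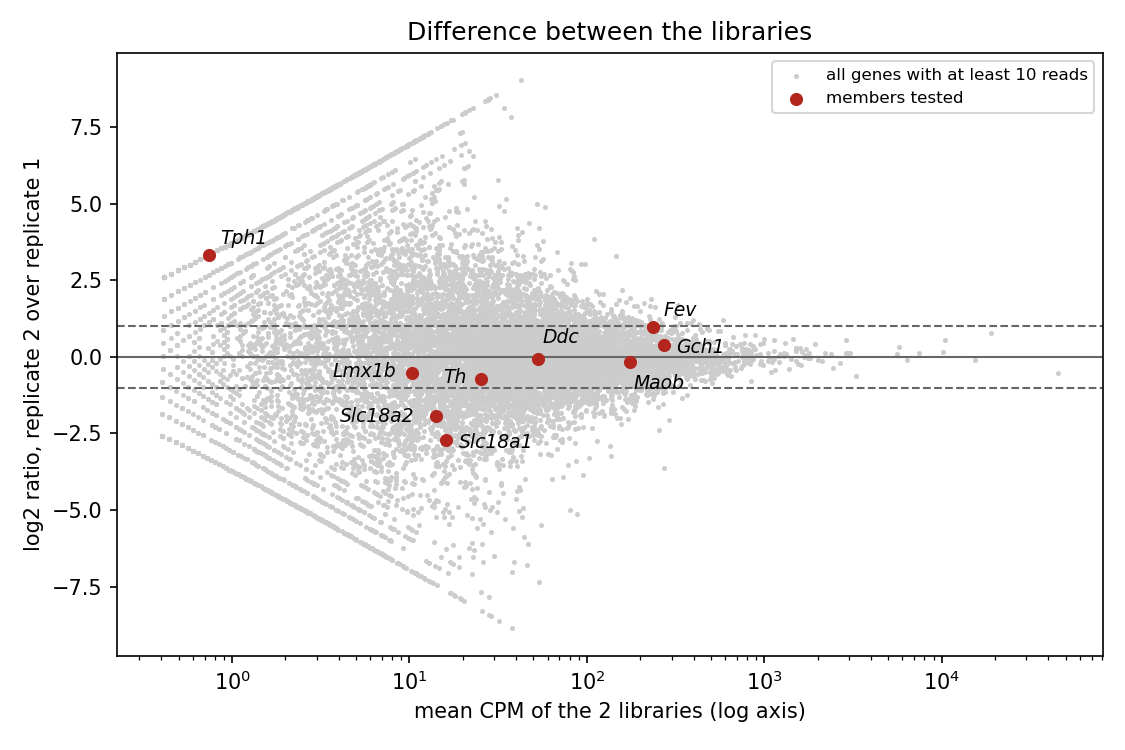
Log2 ratio of replicate 2 over replicate 1 against mean CPM on a log axis, for all 13416 genes with at least 10 reads (grey) and the 9 tested genes of the set (red); dashed lines mark 2-fold. Slc18a1 at -2.72 and Slc18a2 at -1.92 lie below the lower line, and the spread of the grey points narrows as the level rises.

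Markers of other cells also moved between the libraries. All 8 endocrine progenitor markers reached 1 CPM in both, and their summed level was 9654 and 9615 CPM in replicates 1 and 2. More than any other gene, Chgb made up this sum, at 5381 and 5786 CPM. Of the 8 markers, 5 were higher in replicate 1 and 3 in replicate 2, and the list median was 657 and 571 CPM. The summed level of 10 neural crest and peripheral neuron markers was 270.5 and 118 CPM, with 3 of 10 at 1 CPM in both. Most of it came from Ret, at 226 and 105 CPM, while Elavl4 was at 35.2 and 5.46 CPM. By number, 3 of the 10 were higher in replicate 1 and 4 in replicate 2, where Phox2a, Sox10, Ednrb and Hand2 had 25, 5, 11 and 12 reads against 0, 0, 0 and 1 in replicate 1. Dbh and Prph had no read in either library. Of 8 mast cell markers, which include Hdc, 1 reached 1 CPM in both, Kit at 153 and 255 CPM, and it made up nearly all of the summed 158 and 256 CPM. Tpsb2, Mcpt4, Ms4a2 and Fcer1a had no read, and Cpa3 had 58 reads in replicate 1 and 0 in replicate 2. Of 6 platelet and megakaryocyte markers, a source of Slc18a2 in blood, 1 reached 1 CPM in both, and the sum was 2.89 CPM in each library. The summed level of 6 mesenchyme markers was 530.2 and 247 CPM, all 6 being higher in replicate 1. That of 4 macrophage markers was 56.8 and 11.6 CPM, with 3 of them higher in replicate 1. Nearly all of it came from Laptm5, at 37.9 and 3.55 CPM, and Cd68, at 18.4 and 7.69 CPM. Emr1 had 5 and 0 reads, and Csf1r, with 1 and 4 reads, was higher in replicate 2. The 4 endothelial markers summed to 15.8 and 0.909 CPM, nearly all of the first from Cdh5, at 15.6 and 0.165 CPM; 2 of the 4 were higher in each library, and Pecam1 had 1 and 8 reads. The 6 acinar markers summed to 2017 and 1468 CPM and the 5 duct markers to 485 and 473 CPM. Most of the acinar sum came from Ctrb1, at 1321 and 986 CPM. In each of these lists 4 markers were higher in replicate 1. Higher in replicate 2 were 2 acinar markers, Cel and Ptf1a, and 1 duct marker, Krt7. The part of these cells in the higher Slc18a1, Slc18a2 and Th of replicate 1 was not tested.

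Of 6 enterochromaffin cell markers, the serotonin cells of the gut, 3 reached 1 CPM in both libraries: the granin Chga, which islet cells share, at 578 and 689 CPM, Ucn3 at 6.51 and 18.2 CPM, and Tac1 at 4.50 and 6.28 CPM. Trpa1 and Reg4 had no read. Lmx1a had 32 reads in replicate 1 and 2 in replicate 2.

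**Figure D4:**
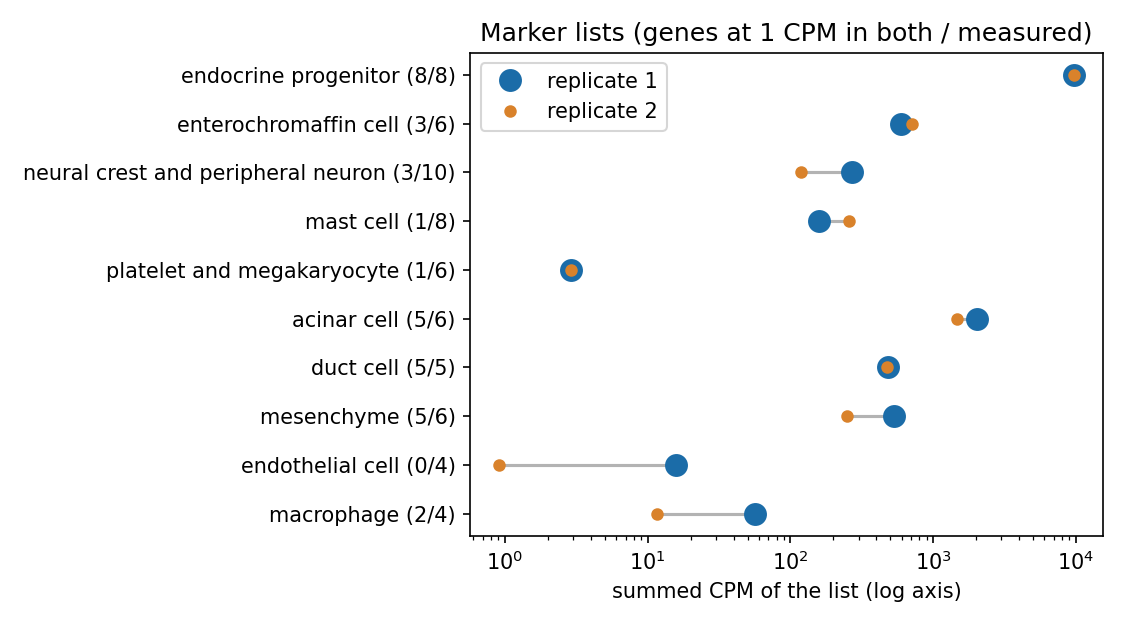
Summed CPM of each marker list, on a log axis, in replicate 1 (large points) and replicate 2 (small points); the numbers beside each name are the genes at 1 CPM or more in both libraries over those measured. The endocrine progenitor list is at 9654 and 9615 CPM, mostly from Chgb, and 5 of its 8 genes are higher in replicate 1. The summed levels of the mesenchyme, macrophage and endothelial lists are lower in replicate 2. The macrophage sum is lower mostly through Laptm5 and Cd68, and the endothelial sum through Cdh5 alone.

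The rest of the pathway was described with 11 lists of 70 symbols, of which 69 were measured and Asmt was not matched. Of these 69 genes, 19 reached 1 CPM in both libraries and 28 had no read in either, against the 45.7% of all symbols that reached 1 CPM in both. Most genes of precursor uptake (4 of 4) and cofactor supply (5 of 7) were detected, and few of amine uptake (1 of 7), conversion to further amines (0 of 4) and receptors (1 of 19).

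Of 7 further genes of tetrahydrobiopterin supply, 5 reached 1 CPM in both libraries. Pcbd1 and Qdpr, which recycle the cofactor after each hydroxylation, were at 200.4 and 157 CPM and at 70.9 and 93.5 CPM in replicates 1 and 2. Pts, the second enzyme of synthesis, was at 35.1 and 58.6 CPM, and Pcbd2 was at 29.6 and 7.52 CPM. Spr, which carries out the last step, was picked out after its values were seen: it had 2 reads in replicate 1 and 11 in replicate 2, or 0.161 and 0.909 CPM. Gchfr, which encodes the feedback regulator of the Gch1 enzyme and was also picked out afterwards, had 6 and 120 reads. The median of the list was 29.6 CPM in replicate 1 and 9.92 CPM in replicate 2, where that of all symbols was 1.13 and 1.57 CPM. Its summed level was closer between the libraries, at 345.3 and 334.5 CPM, with 3 of the 7 genes higher in replicate 1 and 4 in replicate 2.

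All 4 genes of aromatic amino acid uptake reached 1 CPM in both libraries. Slc16a10, a transporter of aromatic amino acids, was at 235 and 277 CPM, and Slc7a5, Slc7a8 and their heavy chain Slc3a2 were at 93.8 and 148, 86.3 and 84.7, and 55.1 and 76.5 CPM. The list median was 90.0 and 116 CPM. Dnajc12, a co-chaperone of the hydroxylases, had 112 reads in replicate 1 and 296 in replicate 2 and was 1.43 higher in log2 there.

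Of 5 further genes of amine breakdown, 2 reached 1 CPM in both, among them the aldehyde dehydrogenase gene Aldh9a1 at 45.1 and 52.8 CPM. Maoa, which encodes the oxidase that prefers serotonin, had 2 reads in replicate 1 and 67 in replicate 2 and was picked out after its values were seen. Per kb, Maob was 51.5-fold above Maoa in replicate 2 (40.4 to 66.7), and in replicate 1 the 2 reads of Maoa gave a ratio of 1979 with counting limits as wide as 547 to 16350. Of 7 amine uptake genes, 1 reached 1 CPM, Slc29a4, a low-affinity monoamine transporter of the plasma membrane, at 39.0 and 89.4 CPM. The other 6, including the serotonin transporter gene Slc6a4 and the dopamine transporter gene Slc6a3, had no read in either library. Per kb, Slc29a4 lay above Slc6a4 by at least 162-fold (replicate 1) and 362-fold (replicate 2), with Slc6a4 set at 3 counts. These bounds take the reads of Slc29a4 as exact.

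None of the 4 measured genes that convert these amines further reached 1 CPM, and Dbh, which makes noradrenaline from dopamine, Pnmt and Aanat had no read in either library. Of 8 genes of the kynurenine route, the other fate of tryptophan, 1 reached 1 CPM in both, Afmid at 29.2 and 1.65 CPM. Of 19 receptor genes, 14 for serotonin and 5 for dopamine, 1 reached 1 CPM in both, the serotonin receptor gene Htr2b, at 1.29 and 6.70 CPM.

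Of 6 further factors of serotonergic neurons, 3 reached 1 CPM in both libraries. Insm1 and Nkx2-2, which endocrine progenitors share with these neurons, were at 1028 and 872 CPM and at 791 and 591 CPM, and Foxa2 was at 78.5 and 73.8 CPM. Gata2, picked out after its values were seen, had no read. Of 7 factors of dopaminergic neurons, 1 reached 1 CPM in both, Nr4a2 at 13.7 and 11.4 CPM, and Pitx3, En1, En2 and Otx2 had no read in either library.

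**Figure D5:**
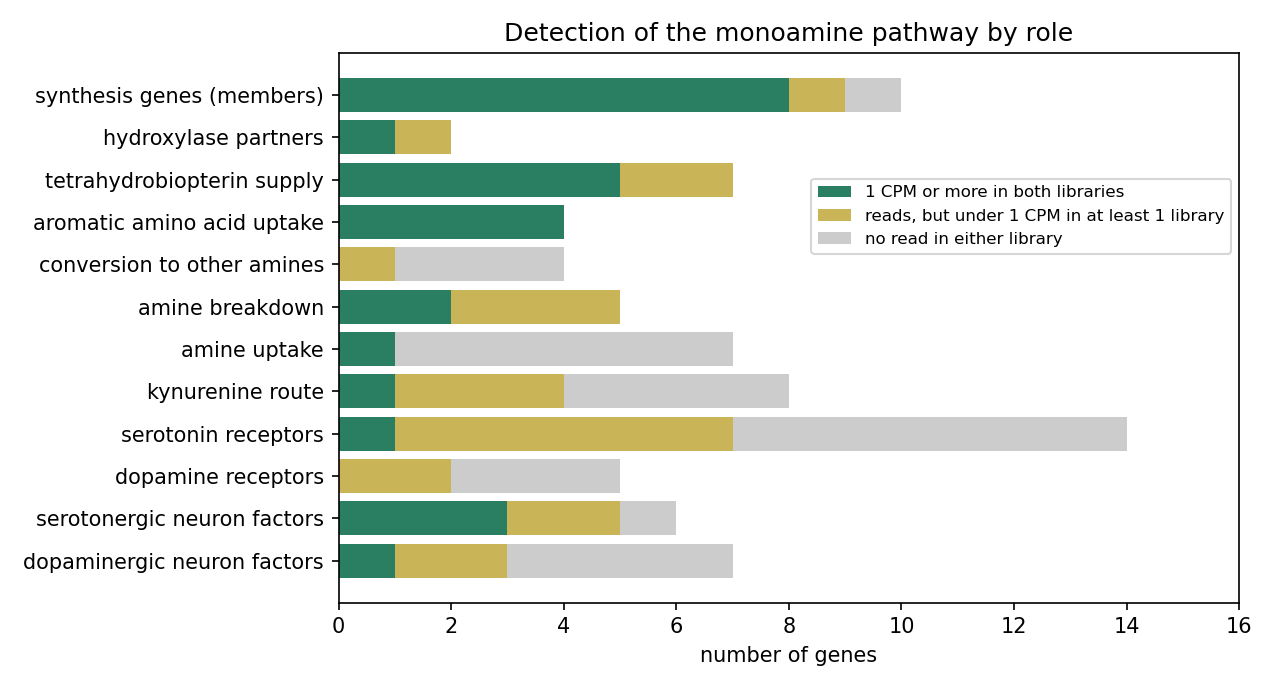
Number of genes by role: at 1 CPM or more in both libraries (green), with reads but under 1 CPM in at least 1 library (yellow), and with no read in either library (grey). The synthesis genes (8 of 10) and amino acid uptake (4 of 4) are mostly green, while amine uptake (1 of 7) and dopamine receptors (0 of 5) are mostly grey or yellow.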

How the data were processed

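GFP+ cells of e15.5 NGN3-EGFP pancreas gave 2 RNA-seq libraries of 1 group. Per the file headers and values, the authors deposited unnormalized read counts for each gene symbol. TopHat2 2.0.4, Cufflinks 2.0.2, cutadapt, FastQC, DESeq and the build mm9 are named, without roles, in the submitters' processing notes. Which program, annotation and strand setting made the counts is not given in the sources used here. Replicate 1 held 12495143 counted reads and replicate 2 held 12043734.

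The members and lists were chosen with earlier results of these data known. CPM used the TMM scaling of edgeR 4.0.16 (R 4.3.3). Levels are means over the libraries or values in each. Log2 ratios used a prior count of 2. Intervals are exact Clopper-Pearson at 95%. The exact binomial test (scipy 1.17.1) covered genes with at least 10 reads in the sum, at an adjusted p of 0.05. It was tried on simulated counts that, apart from genes given a set difference, varied by counting error alone. These libraries vary more, so the simulation does not show how the test behaves on them. Exon lengths are the union of basic transcripts of GENCODE M21 on GRCm38, matched for 98.0% of symbols. Of the members' 25-base words 97.9% to 100% were in no other gene. Only Slc18a2 overlapped exons of another gene, by 99 bases of Gm29261 on the opposite strand. Promoter windows come from RefSeq and were matched for 8 of 10 members. All members are named, with up to 5 genes per pathway list at 1 CPM or more in both libraries and list genes over 2-fold apart with a mean of at least 10 CPM; a few of these are left unreported here, though list counts and sums include them. Alternatives were other scalings (plain totals, DESeq2 1.42.0, Rn45s or the 10 most abundant genes left out), limits, filters and lengths, a prior count of 0.5, and leaving out each library.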

Additional observations from a re-analysis of the deposited data

How the results depend on the processing

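Of the 10 genes, 8 reached 1 CPM in both libraries under each of the 4 other scalings, and the number was 7 at a limit of 5 CPM and 9 without replicate 1, through Tph1. The number that differed between the libraries was 8 under these scalings, with no count filter and with a prior count of 0.5, and 7 with at least 100 reads, where Tph1 was not tested. It was 3 with a 2-fold difference required on top. Fev was over 2-fold with plain column totals only, at a log2 ratio of 1.005. No log2 ratio of a gene of the set changed its sign or its side of the adjusted p of 0.05 in the alternatives run. The ratio of Slc18a2 to Slc18a1 per kb, 0.721 from the mean levels, was 0.658 without replicate 2 and 1.15 without replicate 1, and that of Fev to Lmx1b, 72.4, was 41.0 and 118; the cause was not tested. Without length correction the latter was 23.0, since Lmx1b has the longer exons. Of the 9 steps in the order per kb, 8 held with exon lengths from all transcripts, where Gch1 fell below Maob. The number was also 8 without length correction and without replicate 2, and it was 7 without replicate 1. The number of detected pathway genes, 19, ranged from 17 at 5 CPM to 25 without replicate 2. Without replicate 2 it was 5 for serotonergic factors (3 with both) and 3 for dopaminergic factors (1); without replicate 1 it was 2 for serotonin receptors (1). At 5 CPM it was 0 for serotonin receptors and 0 for the kynurenine route. Leaving out a library gives no value for a difference between libraries. No paired analysis was possible because the study has 1 group. Levels near 1 CPM, such as that of Tph1, rest on few reads.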
